A study of Mus musculus with 12 samples.

Results

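The activator protein 1 (AP-1) and early growth-response genes described here are Jun, Junb, Jund, Fos, Fosb, Fosl1, Fosl2, Egr1, Ier3 and Phlda1. Every probe of the non-normalized table that the platform annotation names with 1 of these 10 symbols was taken. That gave 12 of 45281 probes for 9 genes, and Fosl1 is not analysed here. Of the 12 probes, 11 were kept by a filter on detection, and all 9 genes entered the tests over 9100 genes. The cells were MC38, a metastatic mouse colon cancer line syngeneic to C57BL/6 mice, measured on Illumina bead arrays after 72 h of culture with 10% serum and selection antibiotics. There were 4 arrays of control cells, labelled as lacking CEACAM1, 4 of cells that express the short isoform CEACAM1-S and 4 of cells that express the long isoform CEACAM1-L. CEACAM1 is a cell adhesion protein, and only its long isoform carries a cytoplasmic tail with inhibitory tyrosine motifs. The labels do not say whether an isoform line was 1 clone, or whether its 4 samples were separate cultures, so p-values cover no more than array-to-array spread, possibly a technical one.

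AP-1 is a dimer of basic leucine zipper proteins, built from Jun family members alone or from a Jun with a Fos family member, that binds a short palindromic DNA site. Several of its genes, such as Fos and Jun, belong to the immediate-early genes, as does Egr1, a zinc finger transcription factor. Serum growth factors switch immediate-early genes on within minutes through ERK and other kinases and serum response factor, without new protein synthesis. Ier3 and Phlda1 respond to the same signals and act in cell survival and death. In epithelial tumour cells AP-1 is known for driving genes of proliferation, invasion and matrix breakdown.

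Most of these genes were lower in both isoform lines than in control cells. Of the 9 tested genes, 7 fell and 1 rose in CEACAM1-L cells, and 7 fell and 1 rose in CEACAM1-S cells. In all, 36.2% of the 9100 genes passed for CEACAM1-L and 23.6% for CEACAM1-S. The genes that fell were Jun, Junb, Fos, Fosb, Egr1, Ier3 and Phlda1 in each line, Fosl2 rose, and Jund did not pass the test. By direction, 18% were called lower and 18.2% higher in CEACAM1-L cells (with scaling to the array median, 385 genes lower and 252 higher), and 11.4% lower and 12.2% higher in CEACAM1-S cells. The median log2 difference of the 9 genes was −0.78 with CEACAM1-L and −0.89 with CEACAM1-S, beside −0.01 over all genes in each line. Both comparisons use the same 4 control arrays, so they are not independent of each other. In RNA of whole cultures, fewer cells that express a gene and less RNA per cell cannot be told apart. Within set A and set B, pairs of arrays per group that are described with the arrays, 8 and 6 of the 9 genes passed in CEACAM1-L cells, where 3217 and 1678 of all 9100 did. In CEACAM1-S cells 7 and 8 of the 9 passed, where 1936 and 893 of all genes did. With scaling to the array median, 5 members passed in CEACAM1-L cells (Jun, Fos, Fosb, Egr1 and Phlda1) and, for the CEACAM1-S line, 4 (Jun, Fos, Fosb and Phlda1). Of all 9100 genes, 637 passed with CEACAM1-L and 276 with CEACAM1-S under that scaling, the latter 125 lower and 151 higher. Standard errors were then between 0.33 and 0.35 for Junb, Fosl2, Egr1 and Ier3, and also for Jun and Phlda1, which passed in both lines.

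**Figure D1:**
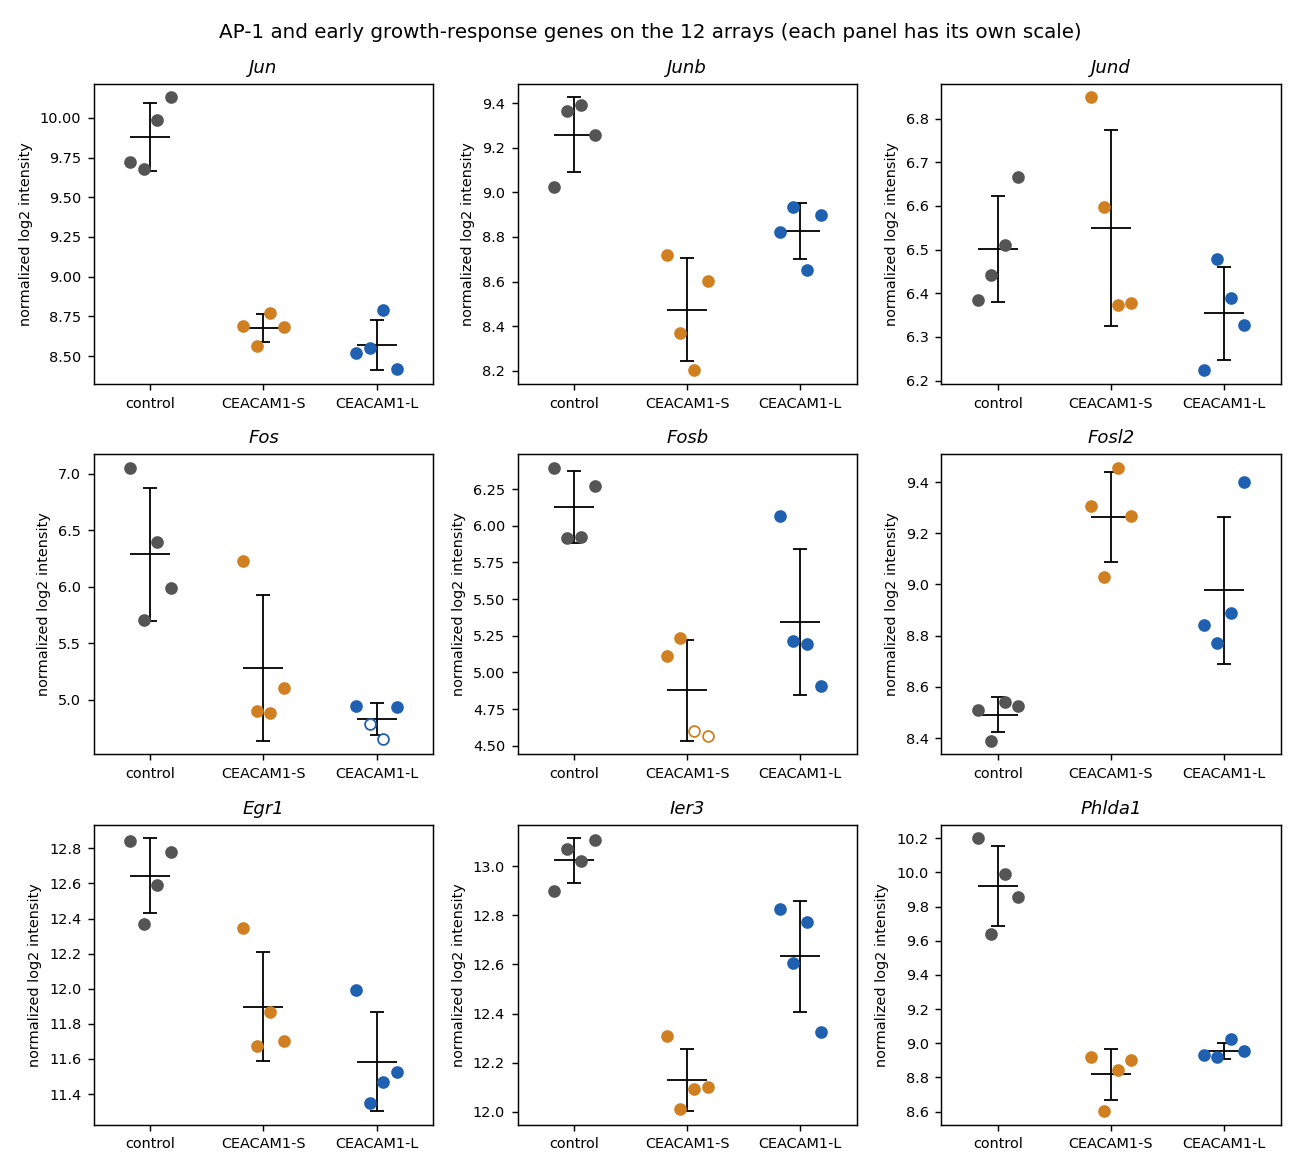
Normalized log2 intensity (y axis) of the probe with the highest mean for each gene, on the 4 arrays of control, CEACAM1-S and CEACAM1-L cells (x axis); bars are the mean and SD, and open points are arrays on which the probe was not detected. All isoform arrays lie below all control arrays for Jun, Junb, Egr1, Ier3 and Phlda1, all isoform arrays lie above for Fosl2, and the groups overlap for Jund.

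Over the series, 14717 to 16071 probes were detected per array, raw signal medians lay between 86.6 and 103 units, and the 12 arrays correlated at r between 0.9587 and 0.9935 across tested genes. Within each group the arrays were split by the rank of their maximum raw signal. The pair with the higher maxima is called set A (30290 to 40614 units) and the other pair set B (17443 to 27138 units) here. The split was imposed, and the labels name no such sets. In CEACAM1-L cells, for example, the maxima were spread out, at 37361, 30290, 24721 and 18628 units. The level of Ceacam1, whose isoforms define the lines, lay between 4.87 and 4.99 log2 units in control, between 7.81 and 8.68 in CEACAM1-S and between 6.41 and 6.70 in CEACAM1-L cells. This was read on the brightest of 4 probes. Its 3 ranges did not overlap, and the probe was detected on all 4 control arrays, close to the lowest detected signals of the arrays (4.73 to 4.87). Of 10 epithelial markers, Krt8 was detected on all 12 arrays, and Epcam, Krt18, Krt19, Krt20 and Vil1 on none, so 5 defining markers of the labelled colon epithelial origin were not detected. Their summed linear level was 280.8 to 310.9 in control, 235.6 to 277.3 in CEACAM1-S and 260.7 to 297.9 in CEACAM1-L cells. Of 8 leukocyte markers with a probe, 0 were detected on all arrays and 6 on none (Ptprc, Cd3e, Cd8a, Itgam, Adgre1 and Lyz2), with sums of 177.5 to 185.3, 172.7 to 189.1 and 176.7 to 190 in the same order. Of 10 fibroblast markers, Pdgfra and Dcn were detected on all arrays and Thy1, Fap and Lum on none, with sums of 539.1 to 631.8, 1718 to 2012 and 1555 to 1714. Of 8 endothelial markers, 4 were detected on no array (Pecam1, Tie1, Vwf and Emcn), with sums of 230.7 to 274, 188.6 to 205.2 and 175.5 to 199.8. The epithelial sum of CEACAM1-S cells lay wholly below control, and Krt8 differed from control by −1.03 ± 0.18 (SE) there (adjusted p = 0.00015) and by −0.43 ± 0.18 with CEACAM1-L (adjusted p = 0.0656). Cdh1 and Cldn7, also tested, did not pass in either line (0.16 and −0.23 with CEACAM1-S). Of 6 tested fibroblast markers, 3 rose and 3 did not pass in CEACAM1-S cells, and 4 rose and 2 did not pass with CEACAM1-L. Of all genes, 12.2% and 18.2% rose. Dcn rose most, by 3.29 ± 0.13 and 2.80 ± 0.13, and Acta2 passed in neither line. The part of the epithelial, fibroblast and endothelial sums, which move with the groups, in the results below was not tested.

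Promoter windows from RefSeq (GRCm38.p6, from 250 bases before to 50 after the annotated start) were matched for 7 of the 10 genes, all but Fosl1, Egr1 and Phlda1. They were searched on both strands for the AP-1 site TGACTCA, the CRE or ATF site TGACNTCA, the EGR site GCGNGGGCG, the TATA box TATAAA and the CArG box of serum response factor; 5 of the 7 windows held 1 match each, so no matches overlapped. The CRE or ATF site was found for Jun alone, at −45 to −38 from the start, and 8.83% of 32841 windows of this length hold one. The EGR site was found for Fosb, at −50 to −42, and for Fosl2, at −79 to −71, against 5.55% of all windows. Both matches read GCGGGGGCG, and Fosb fell whereas Fosl2 rose in the isoform lines. Fos held the TATA box letters at −33 to −28 and Junb at 1 to 6, after its annotated start (13.6% of all windows). No window of the 7 held the AP-1 site (5.2%) or the CArG box (1.63%), which says only that these letters are not in these windows. The 3 windows with a CRE or EGR match are shown 5′ to 3′ on the strand of the gene with the match in capitals, because they set a gene that fell beside one that rose; they lie at chr4:95052173-95052472 (minus strand, Jun), chr7:19309996-19310295 (minus strand, Fosb) and chr5:32136222-32136521 (plus strand, Fosl2).
Jun: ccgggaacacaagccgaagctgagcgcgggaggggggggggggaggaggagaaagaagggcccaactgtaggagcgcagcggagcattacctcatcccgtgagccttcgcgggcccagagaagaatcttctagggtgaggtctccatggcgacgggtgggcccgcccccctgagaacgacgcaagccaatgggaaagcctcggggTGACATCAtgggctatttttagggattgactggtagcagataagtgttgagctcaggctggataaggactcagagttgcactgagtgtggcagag
Fosb: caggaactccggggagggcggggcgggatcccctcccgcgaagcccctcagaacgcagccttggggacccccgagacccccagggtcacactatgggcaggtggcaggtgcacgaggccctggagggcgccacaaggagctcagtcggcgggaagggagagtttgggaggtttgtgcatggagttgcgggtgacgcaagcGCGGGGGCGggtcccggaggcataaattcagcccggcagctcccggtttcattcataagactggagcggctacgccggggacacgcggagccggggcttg
Fosl2: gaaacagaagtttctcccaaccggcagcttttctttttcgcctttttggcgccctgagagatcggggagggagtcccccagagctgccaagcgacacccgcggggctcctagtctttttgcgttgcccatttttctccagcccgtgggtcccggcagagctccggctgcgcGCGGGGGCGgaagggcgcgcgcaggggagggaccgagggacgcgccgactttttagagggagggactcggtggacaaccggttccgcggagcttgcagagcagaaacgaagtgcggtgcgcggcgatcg

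Jun encodes c-Jun, the partner through which Fos proteins bind DNA. The 4 control arrays read 9.72, 9.68, 9.99 and 10.13 log2 units, the CEACAM1-S arrays 8.69, 8.56, 8.77 and 8.68, and the CEACAM1-L arrays 8.52, 8.55, 8.79 and 8.42. Every isoform array lay below every control array by more than the spread within any group. The fall was −1.31 ± 0.12 (SE) for CEACAM1-L (2.48-fold lower, adjusted p = 3.15e-09) and, for the CEACAM1-S line, −1.20 ± 0.12 (2.30-fold lower, adjusted p = 2.72e-08). Jun kept its call in both lines under all 26 alternatives tried, between −1.46 and −1.13 in CEACAM1-L and between −1.27 and −1.05 in CEACAM1-S cells. Many of these alternatives changed only the standard error or the set of genes tested, so the direction was not put to a test by them.

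Junb, a Jun family member that often restrains c-Jun activity, fell less. Control arrays read 9.02, 9.36, 9.39 and 9.26, CEACAM1-S arrays 8.72, 8.37, 8.20 and 8.60, and CEACAM1-L arrays 8.82, 8.93, 8.65 and 8.90. Both isoform lines were clear of the control range, and CEACAM1-S replicate 1 overlapped the CEACAM1-L arrays. From control it differed by −0.43 ± 0.12 (SE) for CEACAM1-L (1.35-fold, adjusted p = 0.00718) and, for the CEACAM1-S line, −0.78 ± 0.12 (1.72-fold, adjusted p = 3.14e-05). Within set B alone the CEACAM1-L difference was −0.28 and did not pass (adjusted p = 0.328), and within set A it was −0.58. Another Junb probe was not well above background on any of the 12 arrays.

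Jund, the Jun family member that is expressed most steadily through the cell cycle, was not shown to differ. Its arrays lay between 6.39 and 6.67 in control, 6.37 and 6.85 in CEACAM1-S and 6.22 and 6.48 in CEACAM1-L cells, so all groups overlapped. The difference from control was −0.15 ± 0.16 (SE) for CEACAM1-L (95% confidence interval −0.47 to 0.18, adjusted p = 0.515) and, for the CEACAM1-S line, 0.05 ± 0.16 (−0.28 to 0.37, adjusted p = 0.868). The CEACAM1-L interval includes a fall of the size measured for Junb in that line, and neither interval includes the falls measured for Jun.

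Fos encodes c-Fos, whose messenger is made within minutes of stimulation and decays fast. The control arrays read 7.05, 5.70, 6.40 and 5.99, the CEACAM1-S arrays 6.23, 4.90, 4.88 and 5.11, and the CEACAM1-L arrays 4.94, 4.79, 4.65 and 4.94. The CEACAM1-L values sat at the edge of detection, with 2 of 4 arrays detected, and CEACAM1-S replicate 1 lay inside the control range. Fos fell, with a log2 difference of −1.46 ± 0.27 (SE) for CEACAM1-L (2.74-fold, adjusted p = 0.000114) and, for the CEACAM1-S line, −1.01 ± 0.27 (2.01-fold, adjusted p = 0.0065). In CEACAM1-S cells the fall was −1.32 without replicate 1, −1.63 within set B, −0.38 within set A (adjusted p = 0.385) and −0.66 with array weights (adjusted p = 0.0588). Without background correction the differences were −0.58 and −0.42, and in the authors' processed values −0.48 and −0.34, all past the threshold.

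Fosb, a close relative of Fos, was also dim. Control arrays read 6.39, 5.91, 5.92 and 6.27, CEACAM1-S arrays 5.11, 5.23, 4.60 and 4.57 with 2 of 4 detected, and CEACAM1-L arrays 6.06, 5.21, 5.19 and 4.91. All CEACAM1-S arrays were below control, whereas CEACAM1-L replicate 1 lay among the control arrays. The log2 difference was −1.25 ± 0.22 (SE) for CEACAM1-S (2.38-fold, adjusted p = 0.000147) and, for the CEACAM1-L line, −0.78 ± 0.22 (1.72-fold, adjusted p = 0.00699). The CEACAM1-L call ended within set B (−0.85, adjusted p = 0.0702), and without background correction the differences were −0.47 with CEACAM1-S and −0.31 with CEACAM1-L. In the authors' processed values they were −0.39 and −0.26, both past the threshold.

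Fosl2, which encodes the Fos family protein Fra-2, went the other way. On the probe with the highest signal the control arrays read 8.51, 8.39, 8.54 and 8.53, the CEACAM1-S arrays 9.31, 9.03, 9.46 and 9.27, and the CEACAM1-L arrays 8.84, 8.77, 8.89 and 9.40. All 8 isoform arrays were above all 4 control arrays. Fosl2 rose by 0.77 ± 0.13 (SE) for CEACAM1-S (1.71-fold, adjusted p = 5.96e-05) and by 0.49 ± 0.13 in CEACAM1-L cells (1.40-fold, adjusted p = 0.0039).

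The 3 Fosl2 probes did not give the same order of the isoform lines. On probe ILMN_2768924 the control arrays lay between 5.08 and 5.66, the CEACAM1-S arrays between 5.41 and 5.97 and the CEACAM1-L arrays between 6.15 and 6.67. On this probe only the CEACAM1-L line was clear of control, by 0.98 ± 0.19 (SE; adjusted p = 0.000252 over all kept probes), while the CEACAM1-S difference was 0.28 ± 0.19 (adjusted p = 0.344). CEACAM1-L was above CEACAM1-S by 0.70 ± 0.19 (adjusted p = 0.00844), where the brightest probe, ILMN_1252481, had it below, at −0.29 ± 0.13 (adjusted p = 0.114 over all kept probes). That difference on the brightest probe passed without CEACAM1-L replicate 4 (−0.43, adjusted p = 0.00747 over genes), without CEACAM1-S replicate 2 (adjusted p = 0.0434) and within set A (−0.46, adjusted p = 0.00656). Probe ILMN_2718801 was detected on all isoform arrays but 1 of 4 control arrays only. It gave 0.46 ± 0.16 in CEACAM1-L (adjusted p = 0.0339) and, for the CEACAM1-S line, 0.09 ± 0.16 (adjusted p = 0.758). All 3 probes had both isoform lines above control in their means, and with the mean of the 3 probes the CEACAM1-S difference was 0.38 (adjusted p = 0.0103). The transcript regions these probes cover were not analysed here.

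**Figure D2:**
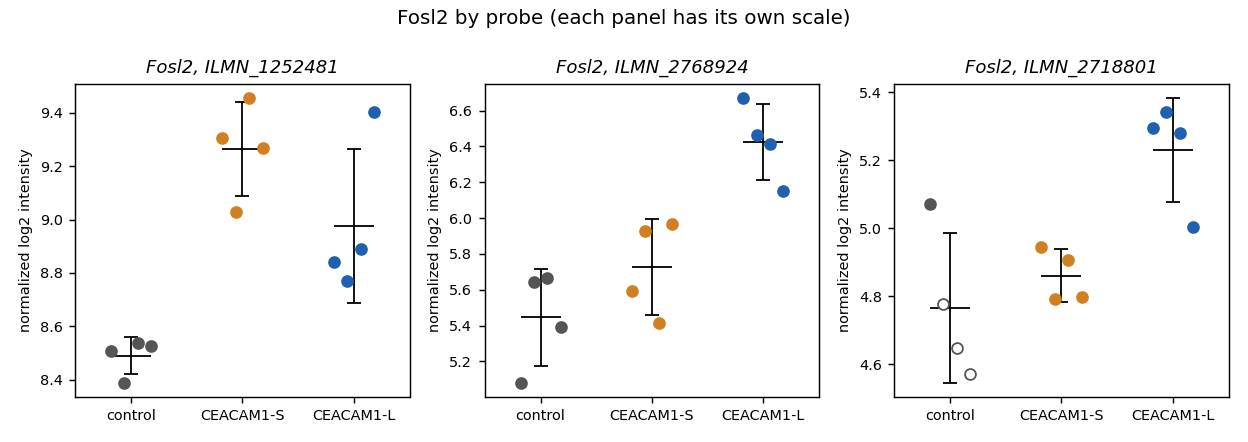
Normalized log2 intensity (y axis) of the 3 Fosl2 probes on the 4 arrays of each group (x axis); bars are the mean and SD, and open points are arrays without detection. On ILMN_1252481 the CEACAM1-S mean is highest (9.26), and on ILMN_2768924 and ILMN_2718801 the CEACAM1-L mean is highest (6.43 and 5.23).

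Egr1, which binds GC-rich sites near growth-related genes, fell in both lines. The control arrays read 12.84, 12.37, 12.59 and 12.78, the CEACAM1-S arrays 12.34, 11.68, 11.87 and 11.70, and the CEACAM1-L arrays 11.99, 11.35, 11.47 and 11.52. Its raw signals lay between 2518 and 8714 units. No isoform array reached the lowest control array, although CEACAM1-S replicate 1 came close. The fall was −1.06 ± 0.14 (SE) for CEACAM1-L (2.08-fold, adjusted p = 1.46e-06) and, for the CEACAM1-S line, −0.75 ± 0.14 (1.68-fold, adjusted p = 0.000237). Within set A the CEACAM1-S fall was −0.45 (adjusted p = 0.0174), and within set B −1.04.

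Ier3, an early response protein that acts on apoptosis and on ERK dephosphorylation, was graded across the lines. Control arrays read 12.90, 13.07, 13.02 and 13.10, CEACAM1-L arrays 12.83, 12.61, 12.77 and 12.32, and CEACAM1-S arrays 12.31, 12.01, 12.09 and 12.10. The 3 groups did not overlap, with CEACAM1-L in the middle and its lowest array just above the highest CEACAM1-S array. In the authors' processed values these arrays crossed, at 12.49 for CEACAM1-L replicate 4 and 12.50 for CEACAM1-S replicate 1. Ier3 fell, with a log2 difference of −0.89 ± 0.10 (SE) for CEACAM1-S (1.86-fold, adjusted p = 3.28e-07) and, for the CEACAM1-L line, −0.39 ± 0.10 (1.31-fold, adjusted p = 0.00332).

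Phlda1 encodes a protein with a pleckstrin homology-like domain that growth factor signalling induces. Control arrays read 10.20, 9.64, 9.99 and 9.86, CEACAM1-S arrays 8.92, 8.60, 8.84 and 8.90, and CEACAM1-L arrays 8.93, 8.92, 9.02 and 8.95. The isoform arrays formed a tight band well under the control arrays. The fall was −1.10 ± 0.11 (SE) for CEACAM1-S (2.15-fold, adjusted p = 8.48e-08) and, for the CEACAM1-L line, −0.97 ± 0.11 (1.95-fold, adjusted p = 3.45e-07). It passed in both lines under all 26 alternatives.

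In CEACAM1-L cells the arrays of 6 of the 9 genes lay wholly below control, where 15.9% of all tested genes did, and Fosb overlapped. In CEACAM1-S cells 6 of the 9 did, where 11.5% of all genes did, and Fos overlapped. The Fosl2 arrays lay wholly above control in each line, as for 16.7% of all genes with CEACAM1-L and 12% with CEACAM1-S. Falls of at least 2-fold past the threshold numbered 3 in CEACAM1-L cells (Jun, Fos and Egr1, beside 2.15% of all genes) and, for the CEACAM1-S line, 4 (Jun, Fos, Fosb and Phlda1, beside 1.12% of all genes). Only 2 of 4 arrays were detected for Fos with CEACAM1-L and for Fosb with CEACAM1-S, and the sizes of both genes depend on the background correction. Without that correction Fos differed by −0.58 with CEACAM1-L and −0.42 with CEACAM1-S, and Fosb by −0.47 with CEACAM1-S, all under 2-fold.

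**Figure D3:**
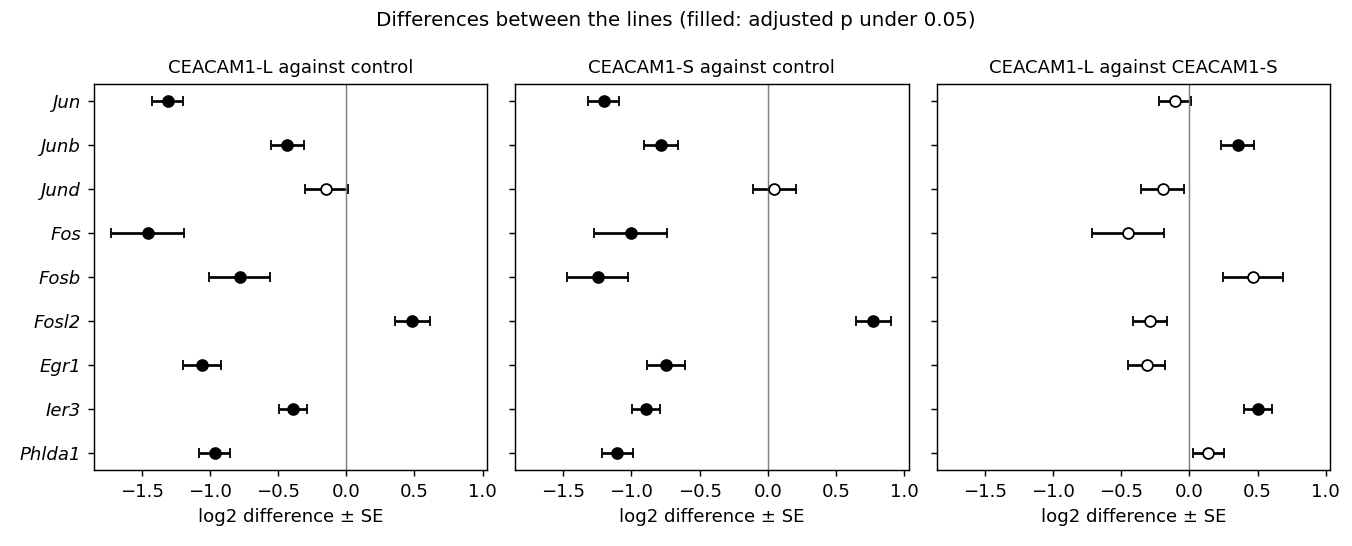
Log2 difference with its standard error (x axis) for the 9 tested genes (y axis) in the 3 comparisons, with filled points where the adjusted p is under 0.05. Against control 7 genes lie left of zero past the threshold and Fosl2 lies right of it in each line, and in the direct comparison only Junb and Ier3 are filled.

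The direct comparison tests whether the 2 isoform lines differed. Isoform, line and Ceacam1 level, which was higher in CEACAM1-S cells, cannot be told apart in it. Of the 9 genes, 2 were higher with CEACAM1-L than with CEACAM1-S and 0 lower, where 13.2% and 12.9% of all genes were called (26.2% in either direction). None of the 9 fell by 2-fold, which 1.26% of all genes did. Ier3 was higher by 0.50 ± 0.10 (SE; 1.42-fold, adjusted p = 0.000524) with all 4 arrays above (13.4% of all genes were wholly above and 12.4% wholly below), and lost its call only with scaling to the array median (0.37, adjusted p = 0.786). In the authors' processed values the Ier3 arrays of the 2 lines overlapped. Junb was higher by 0.35 ± 0.12 (1.28-fold, adjusted p = 0.0346), with overlapping arrays. The Junb call ended under 12 of 26 alternatives, among them leaving out CEACAM1-S replicate 2 or 3 or CEACAM1-L replicate 1, 2 or 4 (0.26 to 0.35), and was 0.13 within set A (adjusted p = 0.477) and 0.57 within set B (adjusted p = 0.0507).

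Jun and Phlda1 differed between the lines by −0.11 ± 0.12 (95% confidence interval −0.34 to 0.13, adjusted p = 0.556) and 0.14 ± 0.11 (−0.10 to 0.38, adjusted p = 0.409). Both intervals leave out differences as large as the fall of either gene from control. Egr1 was lower in CEACAM1-L cells, at −0.31 ± 0.14 (−0.60 to −0.03, adjusted p = 0.0973), and Fos at −0.45 ± 0.27 (−0.997 to 0.0958, adjusted p = 0.229). Fosb was higher by 0.47 ± 0.22 (0.01 to 0.92, adjusted p = 0.127) and Jund lower, at −0.20 ± 0.16 (−0.52 to 0.13, adjusted p = 0.403). None of these passed after adjustment. Within set A the direct difference was −0.61 for Egr1 (adjusted p = 0.00145) and −0.95 for Fos (adjusted p = 0.0145), and within set B −0.01 and 0.05, neither past the threshold. Without CEACAM1-L replicate 1 the Egr1 difference passed (−0.45, adjusted p = 0.018).

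Further genes of the pathway were followed in 4 lists. Among 32 tested immediate-early genes outside the group above, 18 fell, 4 rose and 10 did not pass in CEACAM1-L cells, and 15 fell, 2 rose and 15 did not pass in CEACAM1-S cells. Of all genes, 18% fell and 18.2% rose with CEACAM1-L, and 11.4% fell and 12.2% rose with CEACAM1-S. The list medians were −0.37 and −0.27 log2 units, beside −0.01 over all genes. Klf2, a zinc finger factor, fell, with a log2 difference of −2.22 ± 0.15 (SE) for CEACAM1-L (adjusted p = 4.37e-11) and, for the CEACAM1-S line, −1.92 ± 0.15 (adjusted p = 1.03e-09). Dusp5, the nuclear phosphatase that switches off ERK, fell, with a log2 difference of −2.10 ± 0.13 (adjusted p = 4.53e-12) and −2.45 ± 0.13 (adjusted p = 5.5e-13). Phlda2, an imprinted relative of Phlda1, fell, with a log2 difference of −1.25 ± 0.18 (adjusted p = 4.89e-06) and −2.21 ± 0.18 (adjusted p = 1.12e-09). Between the lines, Phlda2 was higher in CEACAM1-L cells by 0.96 ± 0.18 (adjusted p = 0.000243) and so was Per1, a clock gene that serum also induces, by 1.07 ± 0.15 (adjusted p = 5.44e-06), whereas Id3 was lower, at −0.84 ± 0.20 (adjusted p = 0.0023). Id3 was at the edge of detection in CEACAM1-L cells, with a mean of 4.84 and 3 of 4 arrays detected.

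Among 16 tested genes known as AP-1 targets, 10 fell, 3 rose and 3 did not pass in CEACAM1-L cells, and 9 fell, 1 rose and 6 did not pass in CEACAM1-S cells, with medians of −0.58 and −0.45. The shares of all genes were those given above, 18% lower and 18.2% higher with CEACAM1-L and 11.4% and 12.2% with CEACAM1-S, so the count that rose was near the background. Hbegf, an EGF receptor ligand, fell, with a log2 difference of −1.64 ± 0.13 (SE) for CEACAM1-L (adjusted p = 2.75e-10) and, for the CEACAM1-S line, −1.74 ± 0.13 (adjusted p = 1.66e-10). The chemokine gene Cxcl1 fell, with a log2 difference of −1.66 ± 0.14 in CEACAM1-L cells (adjusted p = 1.2e-09), and the urokinase receptor gene Plaur at −1.05 ± 0.15 in CEACAM1-S cells (adjusted p = 8.26e-06). Csf2, the GM-CSF gene, had 0 of 4 CEACAM1-S arrays detected, a bound of at least 2.38-fold lower (adjusted p = 2.1e-06); in CEACAM1-L cells, with 1 of 4 arrays detected, the mean was 4.49 against 6.03 in control (adjusted p = 1.1e-06), and no fold is given because the other arrays were not above background. The 3 targets that rose against control in CEACAM1-L cells were Mmp10 (1.07 ± 0.22, adjusted p = 0.000357), Mmp13 (adjusted p = 0.000212) and Vegfa (0.51 ± 0.14, adjusted p = 0.00483). In CEACAM1-S cells Mmp10 fell (−0.63 ± 0.22, adjusted p = 0.0344). Ccl2 rose in CEACAM1-S cells (0.70 ± 0.22, adjusted p = 0.0238) and fell with CEACAM1-L (−0.76 ± 0.22, adjusted p = 0.00903). Between the lines, the matrix metalloproteinase gene Mmp10 was higher with CEACAM1-L than with CEACAM1-S by 1.70 ± 0.22 (adjusted p = 2.11e-06), while the chemokine gene Ccl2 was lower, at −1.46 ± 0.22 (adjusted p = 2.58e-05). Mmp13 had a mean of 6.12 with CEACAM1-L and 4.74 with CEACAM1-S (adjusted p = 0.000101), and since 1 of 4 CEACAM1-S arrays was detected no size is given.

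Of 15 other tested basic leucine zipper genes, relatives or partners of AP-1 proteins, 2 rose and 2 fell in CEACAM1-L cells and 1 rose and 2 fell in CEACAM1-S cells, with medians of −0.04 and 0.04. These counts are no result about the list, since 18.2% and 18% of all genes rose and fell with CEACAM1-L and 12.2% and 11.4% with CEACAM1-S. Batf3, a leucine zipper partner of Jun proteins best known from dendritic cells, had 0 control arrays and 4 CEACAM1-L arrays detected, and in the latter it was at least 2.74-fold higher (adjusted p = 1.94e-08). Its mean was 6.25 with CEACAM1-L and 4.74 with CEACAM1-S (adjusted p = 1.52e-06), where 1 of 4 arrays was detected, so the size of that difference is not given. Creb1, which binds the CRE, fell, with a log2 difference of −0.83 ± 0.21 in CEACAM1-L (adjusted p = 0.00295) and, for the CEACAM1-S line, −0.63 ± 0.21 (adjusted p = 0.0307). It was dim in both, with means of 4.97 and 5.17 and 3 of 4 arrays detected in each. Jdp2, a repressor that pairs with Jun proteins, fell by −0.54 ± 0.15 in CEACAM1-L cells (adjusted p = 0.00682). In CEACAM1-S cells Atf5 rose by 0.61 ± 0.15 (adjusted p = 0.00344) and Creb5 fell, with a log2 difference of −0.49 ± 0.18 (adjusted p = 0.0472). Between the lines Atf5 was lower in CEACAM1-L cells, at −0.96 ± 0.15 (adjusted p = 3.22e-05) and Mafg, a small Maf protein, higher by 0.49 ± 0.11 (adjusted p = 0.0021).

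Of 13 tested kinases and factors that act upstream, 2 rose and 0 fell in each line. The number that rose was near the share of all genes called higher, 18.2% with CEACAM1-L and 12.2% with CEACAM1-S. In CEACAM1-L cells these were Mapk9, a JNK gene, at 0.42 ± 0.13 (SE; adjusted p = 0.0137), and Srf, serum response factor, at 0.37 ± 0.14 (adjusted p = 0.0423). In CEACAM1-S cells they were the MAP kinase kinase genes Map2k5 at 0.50 ± 0.17 (adjusted p = 0.0311) and Map2k2 at 0.36 ± 0.09 (adjusted p = 0.00558). Between the lines Nras was lower in CEACAM1-L cells, at −0.33 ± 0.12 (adjusted p = 0.0456). Messenger levels of kinases say nothing of their activity.

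**Figure D4:**
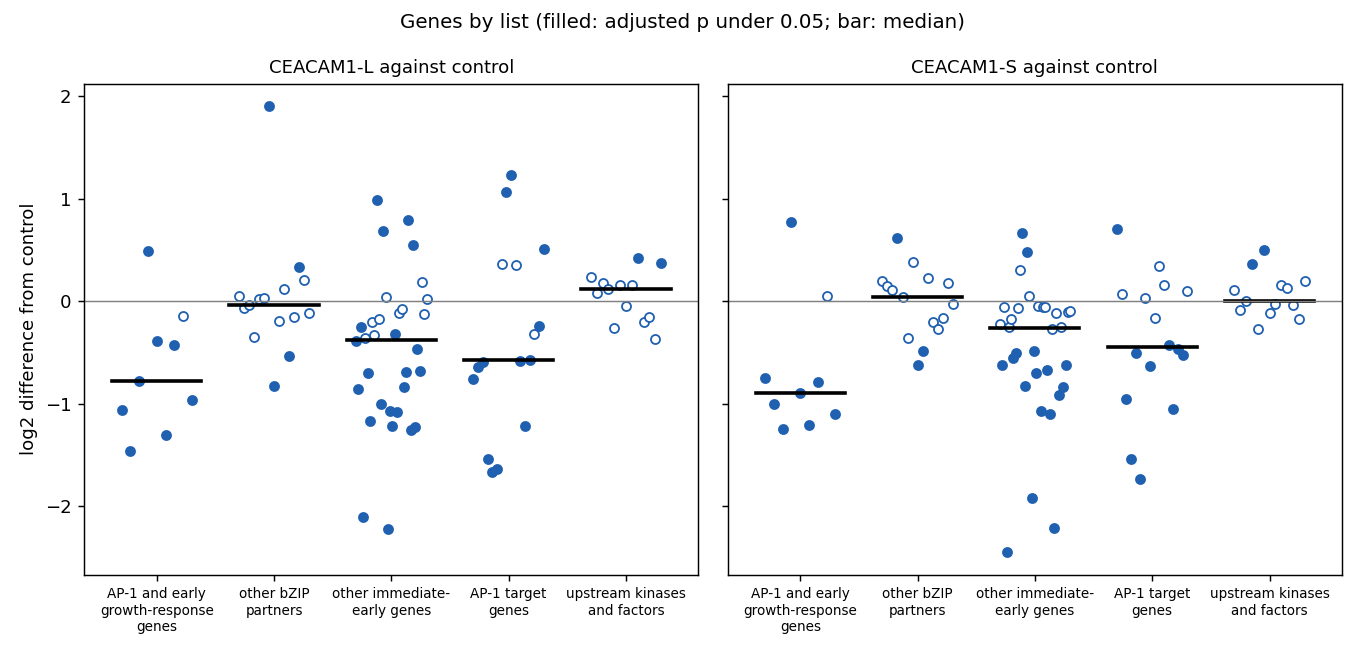
Log2 difference from control (y axis) of every tested gene in the group described here and in the 4 further lists (x axis), in CEACAM1-L and CEACAM1-S cells, with filled points past the threshold and a bar at the list median. The medians of the first group are −0.78 and −0.89, those of the other immediate-early genes −0.37 and −0.27, and those of the AP-1 targets −0.58 and −0.45.

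The genes were also compared array by array, with likeness measured as the mean absolute difference between 2 genes' log2 values over the 12 arrays after each gene was centred on its own mean. Within the group the closest pairs were Ier3 with Junb (0.171 log2 units) and Jun with Phlda1 (0.191). Among all tested named genes, Jun was closest to Myc (0.143), Frmd6 (0.143) and Ap3b2 (0.145), and Fos to Cited2 (0.264), Ier2 (0.271) and Egr1 (0.276). Myc is a growth-regulating transcription factor, and Ier2 is an immediate-early gene like Fos. Egr1 was closest to Ndrg1 (0.133), Mrpl21 (0.159) and Lrp12 (0.16), Ier3 to Twist2 (0.106), Pim3 (0.116) and Gprc5a (0.117), and Phlda1 to Flvcr1 (0.125), Mast4 (0.132) and Fam110c (0.134). Fosb was closest to Ptpn22 (0.202), Krt8 (0.208) and Epha2 (0.246), and Junb to Camk2d (0.107), Timp1 (0.111) and Usp45 (0.112). Epha2 is the ephrin receptor gene named in the title of the series. The rising Fosl2 was closest to Elovl5 (0.107), Parva (0.108) and Psmb8 (0.109), and Jund to Pex3 (0.0707), Mtfr1l (0.0764) and Otub1 (0.0895).

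Within groups, replicate 1 often read highest for the genes described here. Egr1 and Fos were highest on replicate 1 in all 3 groups, as was Fosb in control and CEACAM1-L cells. Replicate 1 was the highest array for 4 of the 9 genes among control arrays, 6 among CEACAM1-S and 4 among CEACAM1-L arrays, where it was highest for 26.5%, 22.1% and 25% of all tested genes. The 3 replicate 1 arrays belong to both sets (B, A and B), and replicate numbers did not pair the arrays over all genes, so this is a description with no test.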

How the data were processed

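RNA of 12 samples of MC38 cells, 4 per group, was measured on Illumina mouse bead arrays. The authors deposited non-normalized signal intensity and a detection p-value per probe and array, per the file headers, and a table of processed values whose scale matched log2 intensity when set against the deposited signals of the same arrays (r between 0.9957 and 0.9999 with each array's own signals; column medians 7.06 to 7.08); the sources used here do not give its normalization. lumi 2.6.0 is named in the submitters' processing notes, without its role.

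Intensities were corrected with limma 3.58.1 (neqc, offset 16, background inferred from detection p-values) in R 4.3.3, quantile normalized and taken to log2. Probes with detection p under 0.05 on at least 4 of 12 arrays were kept (16330 of 45281), and the kept probe with the highest mean stood for its gene (9100 genes). Of the probes, 34885 had 1 gene symbol in the platform annotation, 18 several and 10378 none. The 3 comparisons were fitted together (lmFit, eBayes with trend, 9 residual and 15.5 prior degrees of freedom) with two-sided p-values adjusted by Benjamini-Hochberg over all genes, or over all kept probes for further probes of a gene. A difference is called past an adjusted p of 0.05. A bound ("at least") is set against the lowest signal well above background. The number of arrays limits the precision. The fit was tested on simulated data.

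The genes and lists were chosen with earlier results of these data known. Beside the members, the text names per list and comparison the 3 called genes with the largest change, and per member the 3 genes closest to it over the arrays. It also names the AP-1 targets that rose against control. Alternatives are given in the closing section.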

Additional observations from a re-analysis of the deposited data

Results flagged for a closer look

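Fos on CEACAM1-S replicate 1 stood apart from the other arrays of its group, at 6.23 log2 units against 4.90, 4.88 and 5.11. Its gap to the nearest array was 0.833 of the range of the group. In all, 33 groups of 4 arrays were examined in this way, over 11 probes, and chance flags about 1 in 20 groups. Without this array the Fos difference from control in CEACAM1-S cells was −1.32.

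The 2 isoform lines differed in the direct test for 2 genes; isoform, line and Ceacam1 level cannot be told apart in it. Junb was higher with CEACAM1-L than with CEACAM1-S by 0.35 (limma, adjusted p = 0.0346), and Ier3 by 0.50 (adjusted p = 0.000524).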

How the results depend on the processing

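Of 696 results for single genes under the alternatives, 658 kept their direction and side of the threshold, 24 lost and 10 gained a call, and 4 changed sign. Many alternatives left the log2 difference itself unchanged, so direction could not change under them. These were the other detection filters, eBayes without trend, the blocks, a fit of only the groups compared, and leaving out an array of the third group. With scaling to the array median in place of quantile normalization, 5, 4 and 0 of the 9 genes passed (CEACAM1-L against control, CEACAM1-S against control, CEACAM1-L against CEACAM1-S), and 637, 276 and 293 of all genes where 3290, 2148 and 2382 had. The medians over all genes were then −0.11, −0.03 and −0.11. Within set B 1678, 893 and 677 genes passed. In the direct comparison of the lines, 1 of the 9 passed without the detection filter, 1 without the eBayes trend, 1 within set B, 4 within set A and 4 with array weights, where 2 had. Apart from set B, the counts over all genes under these settings are not given here, so these counts are no result about the 9 genes. Leaving out each array in turn gave 8 to 8 of the 9 genes against control in each line and 1 to 2 in the direct comparison (1 without CEACAM1-S replicate 3 or CEACAM1-L replicate 2). Over all genes it gave 2923 to 3350, 1774 to 2202 and 1937 to 2491. The changes of sign were all below the threshold in the values reported: Jund in CEACAM1-S cells (−0.040 within set B, −0.051 without CEACAM1-S replicate 1; −0.051 to 0.11 over the arrays left out), and in the direct comparison Fos (0.049 within set B) and Fosl2 (0.26 with the mean of its probes). The causes were not tested. Fos and Fosb, dim in the isoform lines, are dropped where detection on all 12 arrays is required.

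Over all tested genes, replicate numbers do not pair the arrays: deviations of same-numbered arrays correlated between −0.198 and 0.187, and 1 of 12 such pairs correlated best with its own number. With the replicate number as a block, 8, 8 and 2 of the 9 genes and 3154, 1972 and 2250 of all genes passed, and in the direct comparison Junb lost its call (adjusted p = 0.0504) and Egr1 gained one (−0.31, adjusted p = 0.0181). The block lowered the standard error of Egr1 from 0.138 to 0.095 and that of Fos from 0.27 to 0.21. It fell less for Fosb, Fosl2 and Phlda1, and rose slightly for Jun, Junb, Jund and Ier3.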
